A study of Mus musculus with 40 samples.

Results

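The RNA response of mouse embryonic stem cells homozygous for GLP 3A to retinoic acid (RA) is described here from 4 RNA-seq libraries, 2 of untreated cells and 2 of RA-treated cells. They were chosen by their labels as the RNA libraries of the mutant cells, out of 8 RNA libraries and 40 samples in the series. The 4 libraries of wild-type cells are used to show where the mutant response differs. They also enter the expression filter and the estimate of spread behind every call. GLP is the protein of the gene Ehmt1, a methyltransferase of lysine 9 of histone H3, and the labels call both genotypes C57BL/6 (mixed) in strain background. The untreated groups had grown on feeder cells in serum with LIF, the cytokine that holds mouse stem cells in their undifferentiated state, and then feeder-free in 2i medium for 2 passages. The RA groups received 1 uM all-trans RA, and LIF was taken away at the same time, so the effect of RA and the effect of losing LIF cannot be told apart. The medium of the RA groups is not described here, so a change from 2i medium cannot be told apart from RA either. How long RA was given, how many clones each genotype stands for and whether replicates were separate cultures are not stated in the labels, so the p-values rest on the spread between libraries that may be technical replicates.

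RA is a small lipid signal made from vitamin A. It enters the nucleus on carrier proteins and binds receptors of the RAR family, which sit with RXR partners on DNA at RA response elements and switch from holding genes off to turning them on. In the embryo RA patterns the hindbrain, spinal cord, heart and limbs, largely through the Hox genes, and in stem cell cultures without LIF it drives exit from pluripotency towards neural, mesodermal and extraembryonic fates.

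Promoters of 2 RA-induced genes are printed because they hold the classical form of the response element, called DR5. DR5 was searched as any of 4 hexamers (AGGTCA or GGGTCA or AGTTCA or GGTTCA), followed after 5 bases by any of them in the same orientation, on both strands. The windows are the RefSeq promoters of build GRCm38.p6, from 250 bases before to 50 bases after each gene's start, read 5′ to 3′ on the gene's strand. Capitals mark the hexamers. Rarb, an RA receptor, lies on the minus strand (window chr14:16575427-16575726), and its element begins 53 bases before the gene's start. Cyp26a1, the enzyme that breaks RA down, lies on the plus strand (window chr19:37697558-37697857), and its element, on the opposite strand, begins 32 bases before the start.
Rarb: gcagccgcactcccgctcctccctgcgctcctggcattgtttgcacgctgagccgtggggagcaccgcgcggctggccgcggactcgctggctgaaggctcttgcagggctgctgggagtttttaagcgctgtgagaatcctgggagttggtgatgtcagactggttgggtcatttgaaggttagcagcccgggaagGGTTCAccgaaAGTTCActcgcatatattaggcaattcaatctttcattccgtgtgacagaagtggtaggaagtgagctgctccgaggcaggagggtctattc
Cyp26a1: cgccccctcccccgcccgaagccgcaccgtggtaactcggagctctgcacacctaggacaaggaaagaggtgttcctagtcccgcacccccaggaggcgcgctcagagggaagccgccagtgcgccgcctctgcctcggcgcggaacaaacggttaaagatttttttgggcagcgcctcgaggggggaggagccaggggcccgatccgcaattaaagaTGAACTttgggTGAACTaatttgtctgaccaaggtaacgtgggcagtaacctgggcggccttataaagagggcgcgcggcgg
The element was found in 31 of 27025 genes of the promoter table (0.115%). Of the 9258 tested genes that the table holds, 3026 were called higher with RA in GLP 3A cells and 3569 lower. Only 5 of the 9258 had the element, and 4 of these were called higher: Cyp26a1, Rarb, the embryonic globin gene Hbb-y and Ppbp. The fifth, Blvrb, was called lower (Ppbp and Blvrb are named here after their values were seen). A link between the element and the response was not tested. None of the 22 Hox genes in the table had the element in this window.

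The files hold RPKM (reads scaled to transcript length and library size) without read counts, so absolute depth is unknown. From the steps between the lowest values, the replicate 1 libraries were 1 to 1.3 times as deep as the untreated GLP 3A replicate 1 library and the replicate 2 libraries 0.45 to 0.58 times as deep. RPKM summed to 822877 and 772615 in untreated and to 509341 and 513354 in RA-treated GLP 3A cells. All 4 replicate 2 libraries, untreated and RA-treated alike, held liver transcripts that replicate 1 nearly lacked: Alb, the gene of serum albumin, stood at 446 and 520 RPKM in the untreated and RA-treated GLP 3A replicate 2 libraries and at 5.64 and 2.65 in replicate 1 (Alb is named after its values were seen). In all 4 groups 39 genes were at least 4-fold higher in replicate 2, and leaving them out changed the number of calls from 9289 to 9309. The 2 RA-treated GLP 3A libraries were also less alike than any other replicate pair, with a Pearson r across genes of 0.935 against 0.966 to 0.977. Ehmt1 itself (mm9 chr2:24646293-24775110) was listed at 14.1 and 14.3 RPKM untreated and at 12.96 and 13.9 with RA, which was not called (log2 difference -0.08, SE 0.07, limma adjusted p = 0.35; 0.522 and called when libraries were scaled to equal RPKM sums). In wild type Ehmt1 was at 18.4 and 17.6 RPKM untreated and at 24.4 and 23.5 with RA, which was called higher (0.39, limma adjusted p = 0.0023). Its level was called lower in GLP 3A than in wild type in both states (-0.32 untreated and -0.79 with RA, limma adjusted p = 0.033 and 0.0041). The difference of the responses, -0.47, was not called. A mutation of the protein need not alter the Ehmt1 level, so that level does not check the labels. Defining stem cell markers (Pou5f1, Nanog, Sox2, Zfp42 and Esrrb) were all above 1 RPKM in both untreated libraries, with sums of 1820 and 1750 RPKM.

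Most of the measured transcriptome of GLP 3A cells differed between RA-treated and untreated cells. Genes of RA handling, Hox clusters, smooth muscle, mesenchyme and imprinted growth control mostly rose, and genes of naive pluripotency, DNA replication and glycolysis mostly fell. Differences are given as log2(RPKM + 1) in RA-treated minus untreated cells, tested with limma over the 13198 genes that reached 1 RPKM in 2 or more of the 8 libraries, and called at a Benjamini-Hochberg adjusted p under 0.05; the scale understates changes of low genes. At that threshold 4262 genes were called higher (32.3%) and 5027 lower (38.1%), or 70.4% in either direction, which is the background against which each list's count is read. In 11194 genes (84.8%) the untreated and the RA-treated libraries did not overlap, and RA-treated libraries were higher in 39.2% and lower in 45.6% of the tested genes. A difference of at least 2-fold in addition to the adjusted p was reached by 1975 genes upward and 1595 downward. The median over all tested genes was -0.07, and the middle 50% lay between -0.61 and 0.61. When the libraries were instead scaled to equal RPKM sums, the median became 0.475 and 78.9% rather than 45.9% of the calls were higher. Small decreases are therefore statements relative to that scale, and lists whose direction depends on it are named where they occur.

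**Figure D1:**
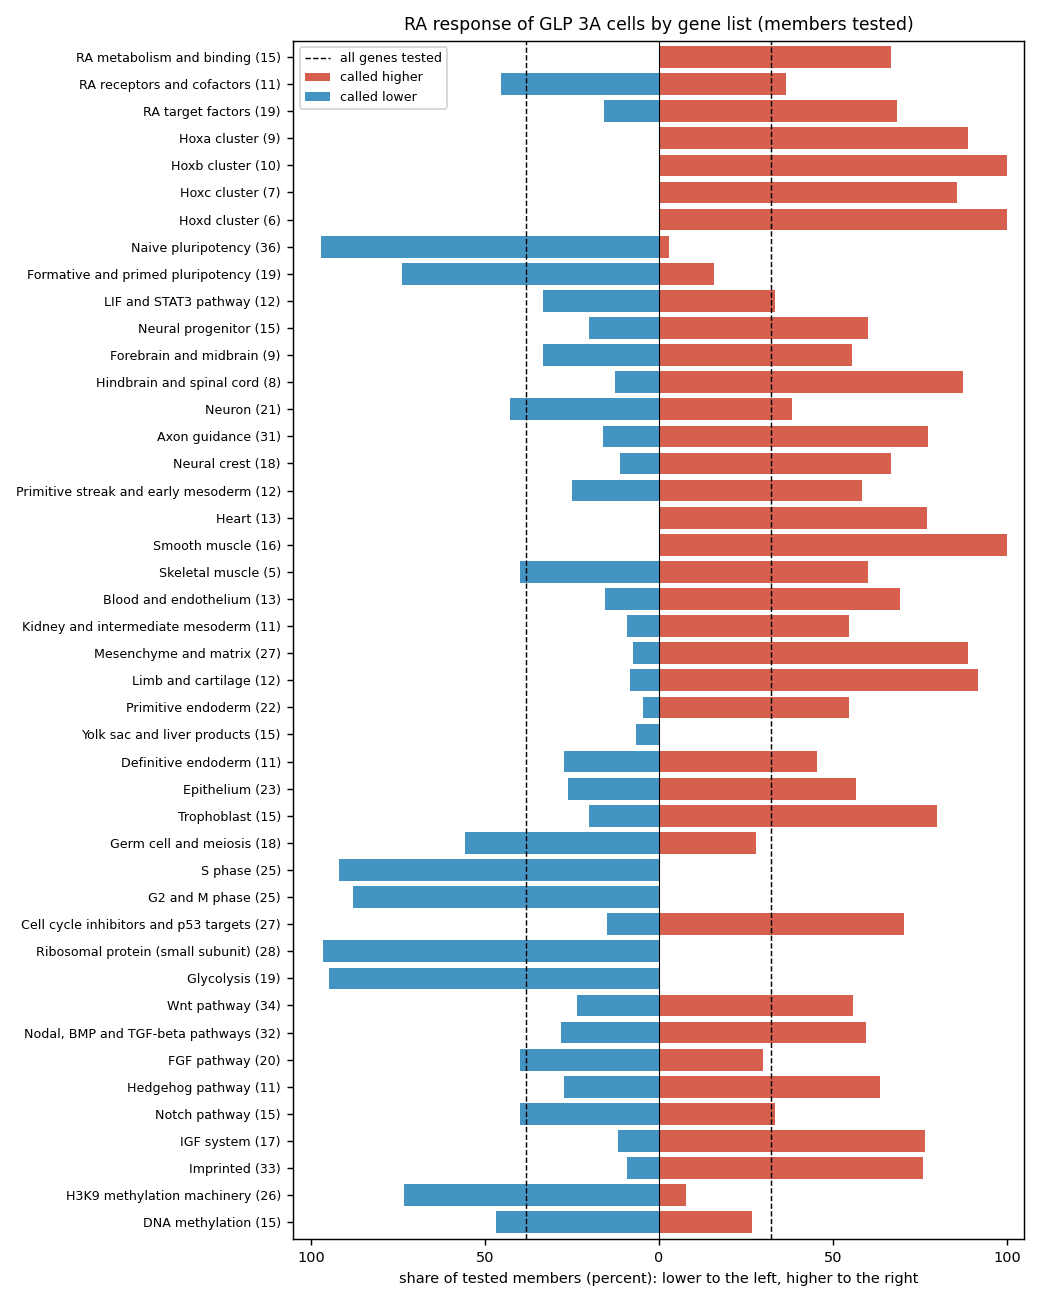
Share of tested members of each gene list that were called higher (right, red) or lower (left, blue) with RA in GLP 3A cells, in percent, with the number of tested members in brackets; dashed lines give the shares over all 13198 tested genes, 32.3% higher and 38.1% lower. Hox, smooth muscle, mesenchyme and limb lists reach far past the line on the right, and naive pluripotency, S phase, ribosomal protein and glycolysis lists far past it on the left; the ribosomal list's median turns positive under quantile normalization.

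Genes for proteins that carry, make and destroy RA were mostly higher with RA. Of 15 tested members of the list for RA metabolism and binding, 10 were called higher, 0 lower and 5 not, with a median of 1.87 against -0.07 over all genes. Cyp26a1 (mm9 chr19:37772297-37776026) was at 0.244 and 0.612 RPKM in untreated cells and at 185 and 126 RPKM with RA. The groups lay far apart, and the log2 difference was 6.76 (SE 0.30, adjusted p = 1.3e-05). A second RA-degrading enzyme, Cyp26b1, stood at 0.0285 and 0.0471 RPKM untreated and 53.3 and 67.6 RPKM with RA. The third, Cyp26c1, reached 3.10 and 1.46 RPKM from 0.025 and 0.102. All 3 members of the Cyp26 family were called higher (32.3% over all tested genes), and in none did the groups overlap (84.8% over all tested genes).

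Uptake and storage genes rose in the same libraries. Stra6, a membrane receptor for the retinol carrier, went from 0.0128 and 0.0533 RPKM to 47.0 and 56.8 RPKM. Crabp2, which hands RA to its receptors, rose from 6.74 and 5.97 RPKM to 147 and 355 RPKM, and here the 2 treated libraries differed from each other by more than 2-fold. Dhrs3, which turns retinaldehyde back to retinol, rose from 0.356 and 0.968 RPKM to 51.6 and 47.6 RPKM. Rdh10, which makes retinaldehyde for RA synthesis, was called higher with a log2 difference of 1.87, against 3.18 in wild type, and the difference of -1.31 between genotypes was called (limma adjusted p = 0.0207). Crabp1, the second cellular RA carrier, was at 25.6 and 25.1 RPKM untreated and at 10.7 and 28.5 RPKM with RA, groups that overlap and were not called. Rbp4, the blood carrier of retinol, is among the genes high in replicate 2 of every group: it was at 0.771 and 33.6 RPKM untreated and 3.25 and 47.7 RPKM treated, and was not called.

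Of 11 tested receptors and cofactors 4 were called higher and 5 lower, with a median of -0.19. When libraries were scaled to equal sums 6 were called higher and 0 lower, and the median became 0.418. Rarb had the largest change of the list, from 0.0845 and 0 RPKM untreated to 15.3 and 18.8 RPKM with RA (log2 difference 4.11, SE 0.13, adjusted p = 5.5e-06). Rara, by contrast, was at 23.3 and 18.6 RPKM untreated and 25.9 and 18.8 RPKM treated and was not called. Rarg fell from 29.8 and 27.8 to 19.3 and 14.0 RPKM, and Rxra rose from 4.02 and 4.81 to 9.26 and 9.18 RPKM. Nrip1, a corepressor recruited by bound RAR, rose by 1.78 on the log2 scale, and the coactivator Ncoa3 fell by 1.01. Under equal sums Rarg (-0.162) and Ncoa3 (-0.403) were not called.

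Transcription factors known as RA targets followed the same course, with 13 of 19 tested members called higher, 3 lower and a median of 2.09. Meis1 and Meis2, partners of Hox proteins on DNA, rose from at most 0.320 RPKM to between 35.4 and 84.9 RPKM. The orphan receptors Nr2f1 and Nr2f2 rose by 4.30 and 4.34 on the log2 scale, and for both replicate 2 was the higher library. Stra8, a gate to meiosis in germ cells, was at 0.364 and 0.417 RPKM untreated and at 118 and 69.2 RPKM with RA. Its level with RA was above that of wild type, whose mean was 26.8 RPKM, but the difference of the responses was not called. Cdx1 (16.9 and 4.42 RPKM with RA) was not called, and replicate 1 was the higher treated library.

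**Figure D2:**
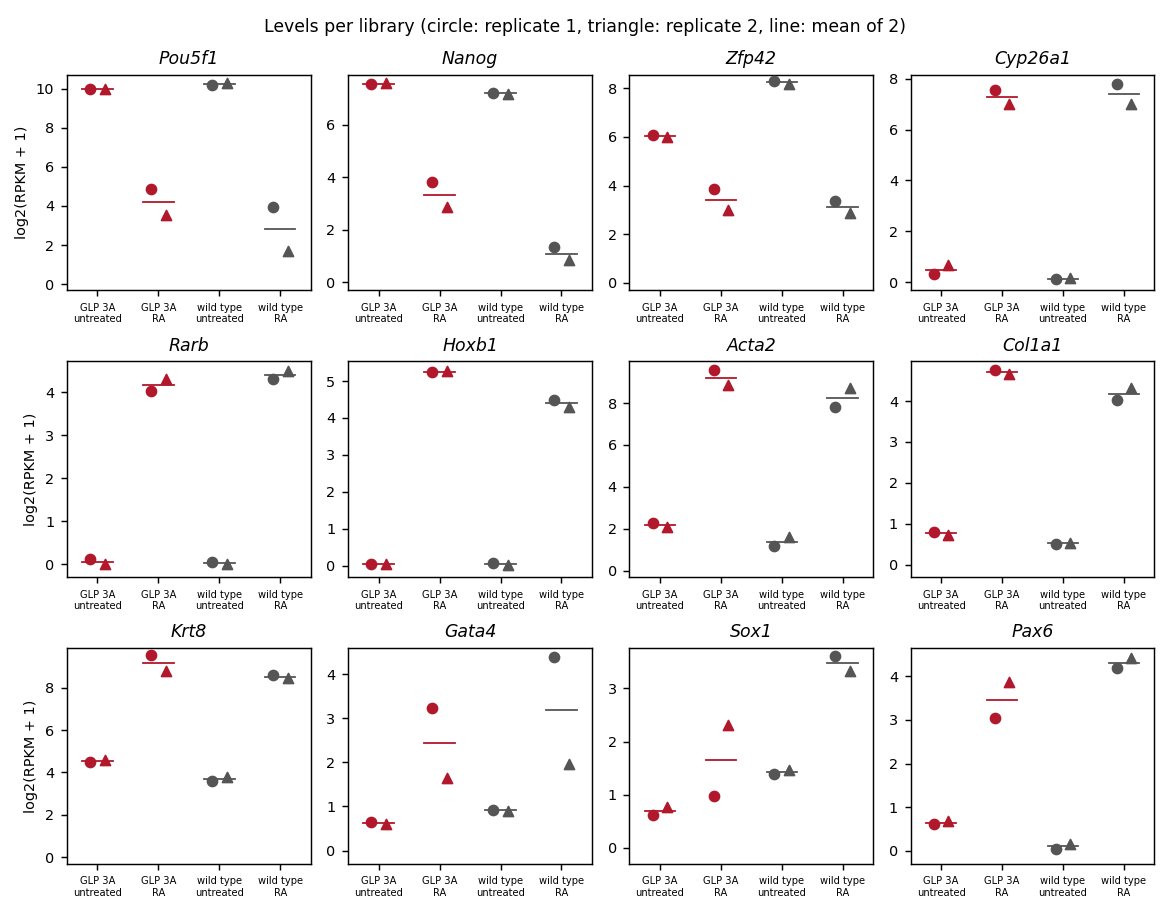
Levels of 12 genes in each of the 8 RNA libraries as log2(RPKM + 1), with GLP 3A in red and wild type in grey, circles for replicate 1, triangles for replicate 2 and a line at the mean of 2. In GLP 3A cells the untreated and RA-treated libraries lie apart for each of the 12 genes, as they do in 84.8% of all tested genes. The 2 treated libraries lie close for Hoxb1 (36.7 and 37.6 RPKM) and wide for Gata4 (8.32 and 2.13 RPKM) and Sox1 (0.979 and 3.96 RPKM).

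Hox genes encode the transcription factors that give cells their position along the body axis, and in each cluster low-numbered genes mark the head end and high-numbered genes the tail end. Of 39 Hox genes in the files 32 were tested, and 30 of these were called higher with RA in GLP 3A cells, 0 lower and 2 not, with a median of 3.07. The remaining 7 did not pass the filter. No Hox gene was above 1.16 RPKM in an untreated GLP 3A library. The median response differed with position: it was 4.08 over the 8 genes of paralogue groups 1 to 3, 3.68 over 12 genes of groups 4 to 7 and 1.33 over the 12 tested genes of groups 8 to 13. In wild type the medians of the same 3 sets were 4.14, 4.13 and 2.32.

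Among the anterior genes Hoxb1, which marks a single hindbrain segment, went from 0.0264 and 0.0284 to 36.7 and 37.6 RPKM (log2 difference 5.21, SE 0.09, adjusted p = 2.3e-06). In wild type its mean with RA was 20.04 RPKM, and the response in GLP 3A was called higher by 0.87. Hoxb2 reached 51.9 and 88.9 RPKM and Hoxa5 78.1 and 119 RPKM from listed values of at most 0.069. Hoxa3, Hoxa4, Hoxa5 and Hoxa6 share one locus in the files, as do Hoxd3 and Hoxd4, and how reads were split between them is not given, so the levels of single genes there are uncertain.

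Posterior Hox genes rose less. Hoxb8 reached 17.8 and 36.5 RPKM, Hoxb9 19.06 and 26.3, Hoxc8 9.69 and 19.09 and Hoxc9 4.58 and 7.84. Hoxa9 was called higher but only reached 0.592 and 0.464 RPKM, against a mean of 2.99 RPKM in RA-treated wild type, and the difference of the responses, -1.37, was called. The same held for Hoxd9, at 1.84 and 1.42 RPKM against 5.04 in wild type (difference -1.25). Hoxa10 was not called in GLP 3A (0.221 and 0.205 RPKM with RA), while its wild-type mean was 1.73 RPKM, and that difference of -1.202 was called as well. These 3, with Hoxb1 in the other direction, were the called differences among the 32; over all genes 1.24% were called lower and 0.561% higher. The calls were not stable across the alternative settings that tested these genes: Hoxa9 and Hoxa10 were called in 10 of 17, Hoxd9 in 9 of 17 and Hoxb1 in 10 of 18, with the same sign throughout.

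**Figure D3:**
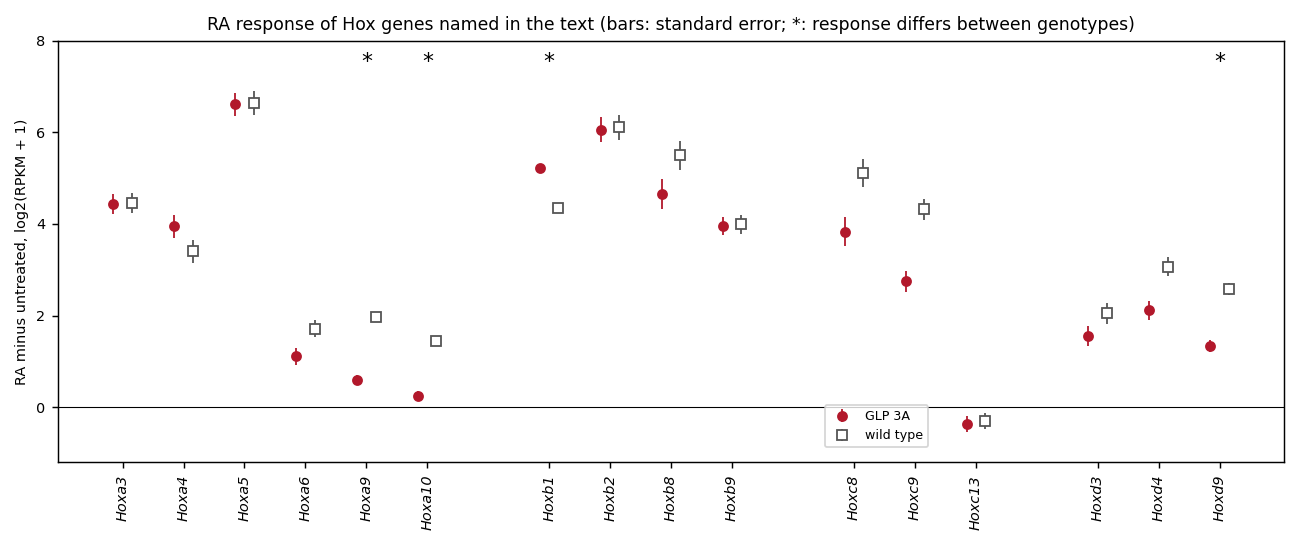
RA response of the Hox genes named here as log2(RPKM + 1), treated minus untreated, ordered within each cluster from low to high number; filled red circles are GLP 3A, open squares wild type, bars standard errors, and stars mark called differences between genotypes. Hoxa5 and Hoxb2 have the largest responses, Hoxc13 lies below 0, and Hoxa9, Hoxa10 and Hoxd9 lie lower and Hoxb1 higher in GLP 3A.

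Naive pluripotency genes formed the group with the largest decreases. All 36 list members were tested, 35 were called lower and 1 higher, with a median of -3.46. Pou5f1 (mm9 chr17:35642976-35647722), the gene of the core factor Oct4, fell from 1022 and 1004 RPKM to 27.7 and 10.7 RPKM (log2 difference -5.79, SE 0.74, adjusted p = 0.00063). Nanog fell from 187 and 191 RPKM to 13.1 and 6.30 RPKM. Esrrb, a naive-state receptor, fell from 145 and 138 to 4.92 and 1.68 RPKM, and Sox2, which also works in neural cells, from 401 and 356 to 21.4 and 35.4 RPKM. In none of these 4 genes did the groups overlap, which also held for 84.8% of all tested genes. Tdgf1, the Nodal coreceptor, lost most, from 672 and 643 RPKM to 7.23 and 2.81 RPKM, followed by Tdh, the threonine dehydrogenase typical of mouse stem cells (log2 difference -6.52). The member that rose was Lin28b, a blocker of let-7 microRNAs, from 8.83 and 9.65 RPKM to 22.8 and 38.7 RPKM.

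RA-treated GLP 3A cells still held more of several of these transcripts in replicate 1 than in replicate 2. The 5 stem cell markers summed to 80.6 RPKM in treated replicate 1 and 60.9 in replicate 2, of which Sox2 alone made up 21.4 and 35.4 RPKM. In wild type the sums were 64.7 and 56.9 RPKM, of which Sox2 made up 38.3 and 47.2 RPKM. Treated Nanog was at 1.51 and 0.814 RPKM in wild type, and its treated level was called higher in GLP 3A (2.25, limma adjusted p = 0.015). So was that of Tdgf1 (1.80, limma adjusted p = 0.026), while those of Pou5f1, Sox2, Zfp42 and Esrrb were not called. The differences of the responses of Nanog and Tdgf1 were not called. Zfp42 (also known as Rex1), a marker of the naive state, was at 66.4 and 63.2 RPKM untreated and 13.5 and 6.89 RPKM treated, while wild type went from a mean of 302 RPKM to 7.81 RPKM. The difference of the responses, 2.50, was called (adjusted p = 0.0463), and the treated levels of both genotypes overlap while the untreated levels do not.

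Genes of the later, formative and primed states fell too: 14 of 19 tested were called lower, 3 higher and 2 not, with a median of -2.39. Otx2, which leads the exit towards the epiblast and forebrain, fell from 9.42 and 8.31 RPKM to 0.0103 and 0 RPKM. Fgf5, the usual mark of the primed epiblast, stayed uncalled at 0.742 and 2.29 RPKM. Foxd3 and Etv5 fell by 3.76 and 4.75 on the log2 scale. The neural factor Zic2 fell by 2.39 and the de novo DNA methyltransferase Dnmt3b by 2.88. In wild type the responses of these genes were 0.45 and -1.49, and each difference was called. The 3 that rose were Cldn6, an embryonic tight junction protein, Tead2, a partner of YAP, and Sox3, a neural progenitor factor, whose call was lost without any single library but treated replicate 1.

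Members of the LIF pathway moved in both directions, 4 higher, 4 lower and 4 not called of 12, with a median of -0.17 that turned to 0.433 under equal sums, where 7 were higher and 4 lower. Socs3, a direct product of LIF signalling, fell from 27.1 and 23.5 RPKM to 9.88 and 12.4 RPKM, and Lifr, the receptor subunit, from 6.62 and 6.56 to 2.79 and 2.47 RPKM. In wild type Lifr was not lowered (mean 5.87 to 6.42 RPKM), and the difference of -1.17 was called. Lif itself rose, from 1.98 and 2.14 to 8.91 and 5.78 RPKM, and Jak2 rose by 2.47.

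Neural genes were called in both directions. Of 15 tested neural progenitor genes 9 were called higher, 3 lower and 3 not, with a median of 1.01. Nes, the intermediate filament of neural stem cells, rose from 3.40 and 3.09 RPKM to 37.5 and 37.2 RPKM. Pax6, a regulator of the neural tube and eye, rose from 0.531 and 0.602 to 7.26 and 13.6 RPKM. Sox1, the earliest marker of neural fate, was at 0.532 and 0.699 RPKM untreated and 0.979 and 3.96 RPKM treated and was not called (adjusted p = 0.068). Leaving out 1 GLP 3A library at a time, the list had 5 members called higher without either untreated library, 6 without treated replicate 2 and 11 without treated replicate 1. With only the 4 GLP 3A libraries in the fit, 6 were called higher. Olig1 and Olig2, factors of the oligodendrocyte lineage, fell from over 35 RPKM to at most 1.06 RPKM.

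Axial position within neural tissue showed in the hindbrain and spinal cord list, where 7 of 8 tested genes were called higher and 1 lower, with a median of 1.43. Another 10 members of that list were not tested. Irx3, a neural tube patterning factor, rose from 0.154 and 0.0972 RPKM to 10.4 and 18.4 RPKM. Nkx6-2, which shares its locus with another symbol, was the member that fell, from 11.8 and 8.95 to 1.36 and 0.435 RPKM. Of 9 tested forebrain and midbrain genes 5 were called higher and 3 lower, with most levels low: Emx2 reached 1.81 and 4.78 RPKM. Hesx1, an anterior forebrain factor, fell from 5.03 and 5.32 to 0.496 and 0.430 RPKM. In wild type Hesx1 started at a mean of 0.879 RPKM, and the difference of -1.67 was called. The median of this list, 0.59, became -2.08 when only genes with 5 RPKM in 2 libraries were kept, which left 1 gene; under quantile normalization 2 of the 9 were called higher and 4 lower.

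Genes of neurons were called in both directions. Of 21 tested, 8 were called higher, 9 lower and 4 not, with a median of -0.38 that was 0.0721 under equal sums. Stmn4 and Dcx, microtubule proteins of young neurons, rose to 28.3 and 14.0 RPKM and to 2.35 and 4.24 RPKM, and Gap43, a growth cone protein, rose by 2.08. Stmn2, a relative of Stmn4, went the other way, from 140 and 145 RPKM to 9.24 and 16.6 RPKM. Tubb3, the neuronal tubulin, fell from 44.2 and 41.0 to 14.9 and 13.7 RPKM. Guidance molecules were more uniform, with 24 of 31 tested called higher and 5 lower (median 1.14). Efnb1, an ephrin ligand, rose from 1.20 and 1.05 to 26.3 and 22.4 RPKM, and Sema3c, a secreted semaphorin, from 0.218 and 0.199 to 8.999 and 16.5 RPKM. The semaphorin receptor Nrp1 rose by 2.94 while its relative Nrp2 fell by 1.56, and Nrp2 was not lower in treated wild type (mean 10.99 to 18.4 RPKM; difference -2.26, called). Nrp1 and Nrp2 each share a locus with another symbol.

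Neural crest genes rose in 12 of 18 tested members and fell in 2, with a median of 1.07. Ets1, a factor of cranial crest and endothelium, rose from 0.487 and 0.451 RPKM to 16.4 and 15.8 RPKM, and Twist1, a driver of mesenchyme, from 0.818 and 0.599 to 7.26 and 16.6. Sox9 rose from at most 0.0304 RPKM to 3.74 and 5.76 RPKM. Msx1, a BMP target of crest and limb, rose to 10.6 and 14.8 RPKM against a wild-type mean of 46.1 RPKM, and its response was called lower by 2.07. Tfap2b was at 0.274 and 2.82 RPKM with RA and was not called.

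**Figure D4:**
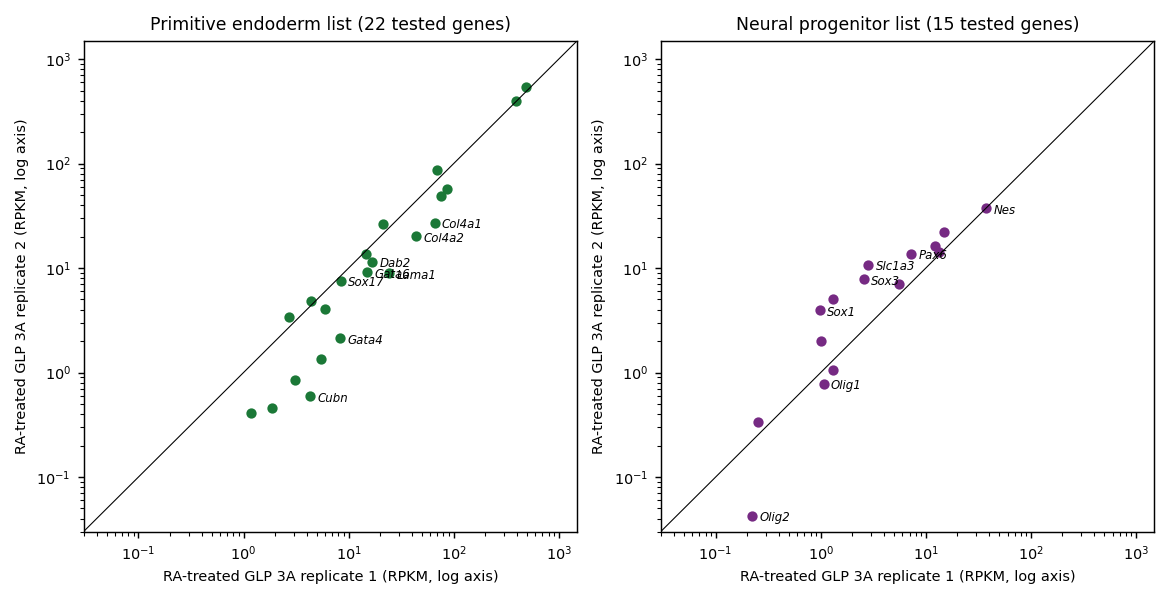
Levels in the 2 RA-treated GLP 3A libraries, replicate 1 on the x axis and replicate 2 on the y axis, both in RPKM on log axes, for the 22 tested primitive endoderm genes (left) and 15 tested neural progenitor genes (right); the line marks equal levels. Gata4, Lama1 and Cubn lie below the line, and Sox1, Slc1a3 and Sox3 above it.

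The primitive endoderm is the first extraembryonic lineage that stem cells can enter with RA, and its genes differed between the 2 treated libraries. Of 22 tested members 12 were called higher, 1 lower and 9 not, with a median of 1.71. Taken by replicate, the median was 2.34 in the first pair of libraries and 1.23 in the second. Such a split was not particular to this list. The same 2 medians were 2.09 and 0.994 for trophoblast. They ran the other way for neural progenitor genes (0.369 and 1.54) and the Hoxa cluster (2.58 and 3.83). Gata6, the lineage's first factor, rose from 0.268 and 0.128 RPKM to 14.9 and 9.10 RPKM, and Sox17 from 0.0396 and 0.148 to 8.49 and 7.55 RPKM. Dab2, an endocytic adaptor of this lineage, rose by 3.22. Gata4 was at 0.568 and 0.525 RPKM untreated and at 8.32 and 2.13 RPKM treated, groups that did not overlap but were not called (log2 difference 1.80, SE 0.82, adjusted p = 0.091). Lama1, a basement membrane laminin, was at 24.4 and 8.95 RPKM with RA, Cubn, a receptor of the visceral endoderm, at 4.32 and 0.593, and neither was called. Collagen IV chains Col4a1 and Col4a2 were called, with 66.0 and 27.0 and with 43.7 and 20.1 RPKM. Wild-type cells had the same split in Gata4, as the plot of gene levels shows. Depth, the liver transcripts of replicate 2 and the higher residual Pou5f1 of treated replicate 1 run with this split, and their part in it was not tested.

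Products of yolk sac and liver gave no call upward. Of 15 tested, 0 were higher, 1 lower (Apoe, from 1041 and 1019 to 221 and 266 RPKM) and 14 not called; 0 were also called higher in wild type. Ttr, the thyroid hormone carrier, was at 0.0562 and 22.3 RPKM untreated and 1.05 and 32.8 RPKM treated, so the replicates differed more than the groups. Without the genes high in replicate 2 only 8 members were left, with 0 called higher, 1 lower and 7 not. For the members left out, the spread between replicates makes a call unlikely, so the lack of calls does not show that they were not induced. The list's median of -0.14 became 1.78 without treated replicate 1 and 1.54 without untreated replicate 2. Definitive endoderm genes split, with 5 of 11 called higher, 3 lower and 3 not, and their median of 0.20 was -0.222 under quantile normalization. Foxa1, an opener of endodermal chromatin, rose from 0.102 and 0.167 to 4.02 and 4.32 RPKM, and Gata5 from 0 and 0 to 2.27 and 1.86 RPKM. Hhex, a factor of anterior endoderm, was called lower as deposited but had a difference of 0.023 under equal sums.

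Contractile genes of smooth muscle rose without exception among the 16 tested members, with a median of 3.00, and the same 16 of 16 were called without either treated library. Acta2 (mm9 chr19:34315580-34329826), smooth muscle actin, was at 3.84 and 3.20 RPKM untreated and at 759 and 459 RPKM with RA (log2 difference 7.04, SE 0.35, adjusted p = 1.8e-05). Tagln (SM22) went from 12.8 and 10.9 RPKM to 1078 and 708 RPKM, and Myl9, the regulatory light chain, from 2.30 and 2.67 to 185 and 134 RPKM. Cnn1, calponin, reached 79.5 and 55.9 RPKM, and Tpm1, tropomyosin, 1117 and 1152 RPKM from 72.3 and 70.6. Tagln shares its locus with other symbols. These genes are also used by other contractile and stressed cells, and no smooth muscle cell type is called from them.

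Striated muscle genes took part to a lesser degree. Of 13 tested heart genes 10 were called higher, 0 lower and 3 not (median 1.76). Actc1, cardiac actin, rose from 0.0477 and 0.152 to 32.1 and 27.7 RPKM, and Nkx2-5, the early heart factor, from 0.244 and 0.178 to 6.22 and 6.02 RPKM. Myh6, the atrial myosin that marks beating heart muscle, was at 0.671 and 0.702 RPKM untreated and 1.00 and 1.03 RPKM with RA and was not called. Nppa, the atrial peptide, rose to 4.45 and 2.73 RPKM in GLP 3A cells while wild type stayed at a mean of 0.428 RPKM, and the difference of 1.85 was called. Hand2, a heart and limb factor, reached 1.33 and 1.71 RPKM against 13.1 and 12.9 RPKM in wild type, a called difference of -2.52. Skeletal muscle had 5 tested genes: Acta1, Tnnt3 and Tnni2 rose, to 128 and 55.5 RPKM in the case of Acta1, and Mylpf and Tnnc2 fell.

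Early mesoderm genes were called in both directions. Of 12 tested 7 were called higher and 3 lower, with a median of 1.22, and another 12 did not pass the filter. T (Brachyury), the mark of the primitive streak, fell from 8.11 and 7.44 RPKM to 0.819 and 1.66 RPKM, and Eomes from 5.81 and 5.26 to 0.649 and 0.235 RPKM. Later mesoderm factors rose from near 0: Foxc2 to 5.42 and 4.39 RPKM, Rspo3, a Wnt amplifier, to 4.70 and 8.82 RPKM. In the kidney list, with 6 of 11 called higher and 1 lower (median 0.59), Wt1 reached 9.21 and 13.7 RPKM and Osr1 3.83 and 3.48 RPKM, and Sall1 fell from 51.5 and 51.8 to 5.10 and 5.43 RPKM. Of 13 tested genes of blood and endothelium 9 were called higher and 2 lower (median 1.17). Hbb-y, whose promoter holds a DR5 match, rose from 0 and 0 to 10.98 and 15.1 RPKM, and Kdr, the VEGF receptor of endothelium, from 0.2005 and 0.144 to 2.28 and 1.68 RPKM. Without treated replicate 1 or untreated replicate 1 the list had 5 members called higher in place of 9, and under quantile normalization 4.

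Mesenchyme and matrix genes rose in 24 of 27 tested members and fell in 2, with a median of 2.04. Col1a2 and Col1a1, the chains of type I collagen, went from 0.149 and 0.301 to 24.7 and 56.2 RPKM and from 0.731 and 0.666 to 26.0 and 24.5 RPKM. Col3a1 rose to 15.7 and 17.7 RPKM. Prrx2, a factor of limb and facial mesenchyme, rose from 0.448 and 0.335 to 26.3 and 26.1 RPKM, and N-cadherin, Cdh2, from 3.09 and 3.06 to 28.2 and 47.0 RPKM. Fibronectin, Fn1, fell from 196 and 210 to 128 and 95.9 RPKM, a decrease that was not called under equal sums (-0.234). Of 12 tested limb and cartilage genes 11 were called higher and 1 lower (median 1.80). Col2a1, the cartilage collagen, rose to 31.1 and 37.9 RPKM, less than in wild type (67.2 RPKM, difference -1.47, called), and Nog, a BMP antagonist, rose to 8.54 and 9.67 RPKM.

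Collagens are also what feeder fibroblasts express, so markers of feeders were read beside these genes. Of 10 feeder markers 6 were tested, 5 were called higher and 1, Thy1, lower (from 3.46 and 3.42 to 1.36 and 0.866 RPKM). Their sum was 4.82 and 6.20 RPKM untreated and 79.7 and 120 RPKM with RA, and 95.3 and 102 RPKM in treated wild type. Feeder carry-over and differentiation into collagen-making cells share these markers, and the part of feeders in the increase was not tested. Macrophage markers (Ptprc, Csf1r, Tyrobp and Emr1) summed to at most 0.315 RPKM in any GLP 3A library, with Ptprc at 0 in all 4. In bulk RNA, more cells of a type and more RNA per cell cannot be told apart.

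Several keratins of simple epithelium rose to high levels. Krt8 went from 21.4 and 23.3 RPKM to 750 and 433 RPKM, its partner Krt18 from 16.6 and 17.0 to 658 and 402 RPKM, and Krt19 from 8.53 and 9.05 to 309 and 200 RPKM. In all 3 the treated replicate 1 library was the higher. Krt20 rose to 31.6 and 24.3 RPKM against a mean of 7.91 RPKM in wild type, and the difference of 1.60 was called. The epithelial list as a whole had 13 of 23 called higher, 6 lower and 4 not (median 0.79). E-cadherin, Cdh1, was at 149 and 144 RPKM untreated and 179 and 138 RPKM treated and was not called, and Epcam fell from 160 and 151 to 68.6 and 75.6 RPKM. The splicing regulator Esrp1, typical of epithelia, fell by 1.35.

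Trophoblast genes rose in 12 of 15 tested members and fell in 3 (median 1.54). Peg10, a retrotransposon-derived placental gene, rose from 41.1 and 38.5 to 396 and 472 RPKM, Plac1 to 7.23 and 10.996 RPKM and Gata3 to 7.92 and 9.22 RPKM. Tfap2c, a regulator of trophoblast and germ line, fell from 52.4 and 48.7 to 9.21 and 6.63 RPKM, and Tead4, an early trophectoderm factor, fell by 1.35. Cdx2, the defining factor, was under the filter. Of 18 tested germ line genes 10 were called lower, 5 higher and 3 not (median -0.40). Under equal sums 5 were lower and 6 higher, and without treated replicate 2 or either untreated GLP 3A library 6 were lower. The 2 large increases were meiotic: Stra8, given above, and Rec8, the meiotic cohesin, from 4.57 and 3.85 to 71.9 and 74.2 RPKM. Rec8 rose more than in wild type (mean 5.25 to 48.9 RPKM; difference 0.84, called). Sycp3, a part of the meiotic chromosome axis, fell from 5.24 and 6.20 to 1.08 and 0.717 RPKM, and Prdm1 and Kit fell as well.

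Genes of DNA replication mostly fell: 23 of 25 tested S phase genes were called lower, 0 higher and 2 not, with a median of -1.06. Under equal sums 16 were called lower and 3 higher, and the median was -0.483. Mcm5, a subunit of the replicative helicase, fell from 176 and 172 to 74.8 and 59.9 RPKM, Mcm10 from 43.9 and 43.6 to 12.9 and 12.8 RPKM and Ung, a DNA glycosylase, from 104 and 94.3 to 22.7 and 20.5 RPKM. Mitotic genes fell less. Of 25 tested G2 and M phase genes 22 were called lower, 0 higher and 3 not, with a median of -0.57, but under equal sums that median was 0.065 and 8 were called higher and 3 lower, and under quantile normalization 12 were lower and 3 higher. Ccnb1 fell from 222 and 234 to 109 and 106 RPKM, whereas Mki67, the proliferation antigen, was at 19.2 and 19.4 RPKM untreated and 17.1 and 18.7 RPKM treated and was not called (0.501 and called higher under equal sums).

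Inhibitors of the cell cycle and targets of p53 rose in 19 of 27 tested members and fell in 4 (median 1.08). Cdkn1c (p57) rose from 6.91 and 6.69 to 52.7 and 89.5 RPKM, Cdkn2b (p15) from 1.89 and 1.41 to 21.6 and 17.6 RPKM and Perp, a p53 target, from 12.3 and 12.6 to 117 and 79.3 RPKM. Among cyclins, Ccnd2 rose from 1.43 and 1.32 to 9.04 and 16.3 RPKM and Ccnd1 fell from 68.5 and 65.5 to 21.4 and 20.7 RPKM. Glycolysis genes fell in 18 of 19 tested members, with 0 higher and a median of -1.29. Under equal sums 12 were lower and 1 higher with a median of -0.657, and under quantile normalization 14 were lower and 1 higher. Ldha fell from 1211 and 1232 to 233 and 209 RPKM, Pfkp from 64.9 and 68.2 to 5.83 and 3.85 RPKM and Pdk1 from 37.6 and 36.5 to 5.76 and 5.88 RPKM. The uncalled member was Slc2a1, the glucose importer, at 225 and 212 RPKM untreated and 414 and 251 RPKM treated. Ribosomal proteins of the small subunit were called lower in 27 of 28 (median -0.72), but 1 was called lower under equal sums, and under quantile normalization 10 were called higher and 2 lower.

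Signalling pathways had members called in both directions. In the Wnt list 19 of 34 tested members were called higher and 8 lower (median 0.73), and under equal sums 25 were higher and 3 lower. Wnt6, a ligand, rose from 0.486 and 0.424 to 38.6 and 39.4 RPKM, and the receptor Fzd2 from 5.496 and 5.39 to 101 and 110 RPKM. Fzd5, the receptor of stem cells, fell from 17.1 and 15.98 to 1.53 and 1.07 RPKM, and Notum, a Wnt inactivator, from 58.9 and 54.8 to 5.72 and 6.62 RPKM. Notum fell less in wild type (28.5 to 10.9 RPKM; difference -1.69, called), and Tcf7l1, the repressor of stem cell genes, fell by 0.83 in GLP 3A cells and was at 28.0 and 33.2 RPKM in wild type (difference -1.07, called).

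Several Nodal components fell and several BMP components rose: of 32 tested members of the combined list 19 were called higher and 9 lower (median 0.79). Nodal fell from 38.9 and 33.6 to 14.3 and 7.03 RPKM, Lefty1 and Lefty2, its inhibitors, by 2.62 and 4.62, and Gdf3, a coligand, by 4.26. Bmp2 rose from 0.0237 and 0.211 to 5.45 and 5.87 RPKM, Bmp7 from 2.82 and 3.51 to 12.5 and 22.8 RPKM and the inhibitory Smad6 from 1.85 and 1.38 to 11.4 and 12.8 RPKM. Id4, a BMP target, fell from 17.2 and 14.5 to 1.10 and 1.24 RPKM.

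FGF members were called in both directions. Of 20 tested 6 were called higher, 8 lower and 6 not, with a median of -0.28 that was 0.16 under equal sums, where 10 were higher and 7 lower. Fgf4, the autocrine ligand of stem cells, fell from 76.8 and 74.6 to 0.777 and 0.136 RPKM, and the feedback inhibitors Spry2 and Spry4 fell by 2.72 and 3.17. The receptor Fgfr2 rose from 2.28 and 2.47 to 13.8 and 19.14 RPKM, and since wild type rose from a mean of 0.457 to 27.2 RPKM its response was called lower by 1.92. In the Hedgehog list 7 of 11 were called higher and 3 lower (median 1.30). Gas1, a coreceptor, rose from 0.858 and 1.06 to 86.1 and 173 RPKM and Smo, the signal transducer, from 4.06 and 3.64 to 22.5 and 29.1 RPKM, while the readout gene Gli1 fell by 1.94 and Ptch1 was not called.

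Notch and IGF members complete the pathways. In the Notch list 5 of 15 were called higher and 6 lower, with a median of -0.13 that was 0.347 under equal sums, where 8 were higher and 5 lower; without treated replicate 1 the counts were 7 and 6. Hes1, the main target, rose from 20.6 and 20.7 to 36.4 and 53.3 RPKM, and the ligand Jag1 fell from 8.93 and 8.94 to 1.19 and 1.63 RPKM, more than in wild type (difference -1.51, called). In the IGF list 13 of 17 were called higher and 2 lower (median 0.99). Igf2, the fetal growth factor, rose from 2.27 and 2.20 to 227 and 193 RPKM (log2 difference 6.03, SE 0.09, adjusted p = 2.3e-06). Its binding protein Igfbp5 rose to 4.69 and 11.8 RPKM, against a wild-type mean of 48.7 RPKM; that difference was not called.

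Imprinted genes, read from 1 parental copy, rose in 25 of 33 tested members and fell in 3, with a median of 1.64. H19, the noncoding neighbour of Igf2, went from 9.01 and 8.36 RPKM to 1019 and 828 RPKM. Dlk1 rose from 0.560 and 0.359 to 28.5 and 58.0 RPKM, Sgce from 2.78 and 2.21 to 26.2 and 35.4 RPKM and Airn, an antisense RNA whose reads overlap Igf2r, to 6.94 and 9.88 RPKM. H19, Igf2 and Airn share loci with other symbols. Snrpn fell from 133 and 135 to 47.1 and 44.6 RPKM. Phlda2, which restrains placental growth, was at 52.6 and 59.6 RPKM untreated and 68.0 and 49.2 RPKM treated and was not called, whereas wild type fell from 93.9 to 29.7 RPKM; the difference of 1.68 was called.

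Genes of H3K9 methylation, the machinery to which GLP belongs, were called lower in 19 of 26, higher in 2 and not in 5 (median -0.51), but under equal sums 8 were lower and 7 higher and the median was 0.0889. Ehmt2, the gene of the partner enzyme G9a, went from 44.8 and 39.8 to 30.2 and 28.4 RPKM (log2 difference -0.51, adjusted p = 0.011), which was 0.111 and uncalled under equal sums. Trim28, the corepressor KAP1, fell from 577 and 573 to 199 and 178 RPKM, and Kdm3a, an H3K9 demethylase, from 31.0 and 33.4 to 9.16 and 10.3 RPKM. Suv39h1, another H3K9 methyltransferase, rose from 11.2 and 11.1 to 28.7 and 24.7 RPKM. Of 15 DNA methylation genes 4 were called higher and 7 lower, with a median of -0.47 that was 0.157 under equal sums, where 7 were higher and 5 lower. Tet1, a methylcytosine oxidase, fell from 37.4 and 37.9 to 2.37 and 2.59 RPKM while Tet3 rose from 0.473 and 0.526 to 4.06 and 5.43 RPKM, and Dnmt3l fell from 217 and 219 to 45.9 and 14.6 RPKM.

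Changes were ranked without Gm, Rik, LOC and accession-like names and short RNA genes. Outside the lists, the largest ranked increase was that of Pmp22, a membrane protein of peripheral myelin that many growing tissues also express. Pmp22 rose from 0.864 and 1.13 RPKM to 372 and 244 RPKM (log2 difference 7.24). The largest ranked decrease was that of Trh, the thyrotropin-releasing hormone gene, which stem cells express. Trh fell from 879 and 811 RPKM to 4.11 and 1.25 RPKM (log2 difference -7.96). Sept1, a cytoskeletal GTPase, fell from 199 and 195 to 3.33 and 1.23 RPKM. Krt42, Pla2g1b, Ubd and Hsd17b14 were the other non-list genes among the 15 largest decreases, with log2 differences between -5.11 and -4.72. Atp6v0c-ps2, a pseudogene, was also among them, but shares its locus with Atp6v0c and is uncertain.

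The responses of both genotypes were alike in most genes. Of the 9289 genes called in GLP 3A cells, 84.3% were called in the same direction in wild type, and of the 9041 called in wild type 86.6% were called in the same direction in GLP 3A; 62 genes were called in opposite directions. Pearson's r across the 13198 genes, which are not independent, was 0.879. The difference of the 2 responses was called for 238 genes (1.80%), 74 higher (0.561%) and 164 lower (1.24%) in GLP 3A cells. That count depends on single libraries: leaving out 1 library at a time gave from 11, without untreated wild-type replicate 2, to 1128, without RA-treated GLP 3A replicate 2.

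**Figure D5:**
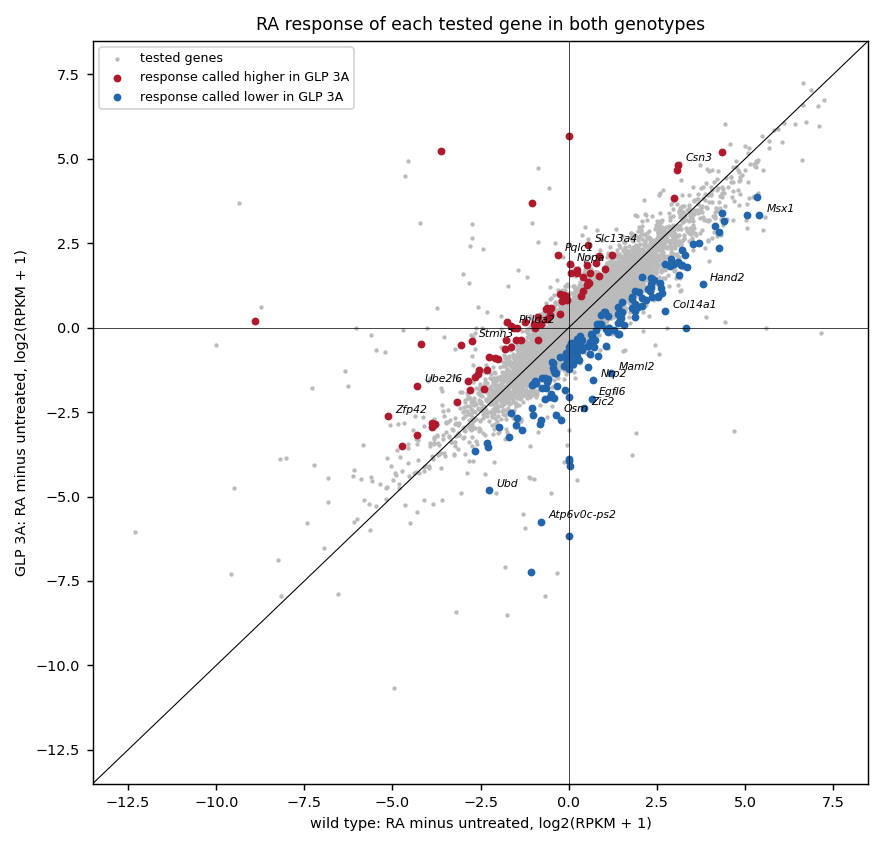
RA response of each of the 13198 tested genes as log2(RPKM + 1), treated minus untreated, in wild type (x axis) and GLP 3A (y axis); red and blue points are the 74 and 164 genes whose response was called higher or lower in GLP 3A, the line marks equal responses, and genes named in the text among the largest called differences are labelled. Most points lie along the line, and several labelled genes lie near 0 on one axis.

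Atp6v0c-ps2, uncertain for its shared locus, was called lower in GLP 3A than wild type in both states (-2.06 untreated and -7.02 with RA). The other largest called differences described here took 3 forms. In one, untreated levels were called different between the genotypes and treated levels were not. Ube2l6, a ubiquitin-conjugating enzyme, was at 16.5 and 14.5 RPKM in untreated GLP 3A cells and at 79.2 and 60.3 RPKM in untreated wild type, with all treated libraries at most 4.47 RPKM (difference 2.59, limma adjusted p = 0.0193). Zfp42 and Stmn3 shared this form, with untreated wild type the higher. Egfl6, Ubd and Osm had it the other way, with untreated GLP 3A the higher: Ubd was at 29.9 and 28.4 RPKM there and at 3.88 and 4.27 RPKM in untreated wild type. In these genes the untreated libraries of the 2 genotypes did not overlap.

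In the second pattern treated levels differ. Hand2 and Msx1, given above, and Col14a1, a fibrillar matrix collagen, at 0.272 and 0.848 RPKM in treated GLP 3A against 5.40 and 6.05 RPKM in treated wild type (difference -2.24), were lower in GLP 3A. Higher there were Nppa, Slc13a4, a sulfate transporter (8.16 and 5.88 against 1.15 and 0.815 RPKM; difference 1.89), and Csn3, a casein (28.3 and 26.9 against 6.81 and 8.61 RPKM; difference 1.72), whose locus is shared. In the third, the genotype with the higher level untreated was the lower with RA, and both differences were called. Maml2, a Notch coactivator, fell from 3.31 and 3.60 to 0.746 and 0.759 RPKM in GLP 3A and rose from 0.0625 and 0.0331 to 1.39 and 1.45 RPKM in wild type (difference -2.55). Pqlc1, a membrane transporter, rose from 3.43 and 3.10 to 20.4 and 16.1 RPKM in GLP 3A, while wild type went from 10.6 and 11.8 to 7.76 and 9.93 RPKM, which was not called (difference 2.48). Zic2 fell from 23.7 and 20.3 to 2.38 and 4.68 RPKM in GLP 3A, while wild type was at 6.15 and 5.75 RPKM untreated and 7.04 and 10.1 RPKM treated and was not called (difference -2.83; treated levels differed by -1.11, limma adjusted p = 0.0499). Over all 238, the response was larger in GLP 3A for 73, smaller for 92 and of opposite sign for 73.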

How the data were processed

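The submitters sequenced single-end libraries of 8 RNA samples (4 groups, 2 replicates each); the other 32 of 40 samples are not RNA and were not analysed here. The authors deposited RPKM per gene symbol with its mm9 locus, 1 file per library, per the file headers; Bowtie 0.12.7, SAMtools, TopHat and Cufflinks are listed in the submitters' processing notes, with no settings given in the sources used here. How reads were shared between overlapping genes is not given, and 4166 symbols share a locus. These include named genes not marked so where their levels are given, such as Sycp3, Tnnt3 and Dnmt3l. Files hold no counts, so depth is unknown except relative to one library, and no count test was run.

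Genes that reached 1 RPKM in 2 or more libraries (13198 of 23228 symbols in all files) were tested as log2(RPKM + 1) with limma 3.58.1 in R 4.3.3: 4 group means over 8 libraries, empirical Bayes with an intensity trend, Benjamini-Hochberg adjusted p under 0.05. All 8 libraries share one estimate of spread, and the difference between genotypes is the interaction term. On data simulated for the RA response in GLP 3A over 13198 genes, 72 of 100 genes changed by 1 on the log2 scale and 92 of 100 changed by 2 were recovered, and 11 of 175 calls were false. The simulation changed few genes and drew noise separately for each library. In the data 70.4% of genes were called and same-numbered libraries deviated together, so these rates need not hold for the real calls. Named genes are the 15 largest called increases and decreases whose groups did not overlap, the 10 largest called differences between genotypes each way, a set of lineage genes and, of 47 gene lists, up to 6 called members each way and 3 not called (any member of the Hox and RA lists), unless said otherwise; some genes that the rule selects are not reported here. The rankings of largest changes and differences left out Gm, Rik, LOC and accession-like names and short RNA genes. The members and lists were chosen with earlier results of these data known. Promoters come from RefSeq (GRCm38.p6). Alternatives were other pseudocounts, filters, normalizations and variance settings, a replicate block and leaving out each library; scaling to equal RPKM sums and leaving out the genes high in replicate 2 were added after seeing the data.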

Additional observations from a re-analysis of the deposited data

Results flagged for a closer look

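For 36 genes named above, the RA response of GLP 3A cells differed from that of wild type by the limma interaction term, which is what brought them here; each of the 4 groups had 2 libraries. Values are differences of log2(RPKM + 1) responses, GLP 3A minus wild type. The response was higher in GLP 3A for Ube2l6 (2.59), Zfp42 (2.50), Pqlc1 (2.48), Stmn3 (2.37), Slc13a4 (1.89), Nppa (1.85), Csn3 (1.72), Phlda2 (1.68), Krt20 (1.60), Spry4 (1.14), Hoxb1 (0.87) and Rec8 (0.84).

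It was lower for Atp6v0c-ps2 (-4.96), Zic2 (-2.83), Egfl6 (-2.77), Ubd (-2.57), Maml2 (-2.55), Hand2 (-2.52), Nrp2 (-2.26), Col14a1 (-2.24), Osm (-2.24), Msx1 (-2.07), Fgfr2 (-1.92), Notum (-1.69) and Hesx1 (-1.67). Smaller differences in the same direction were those of Jag1 (-1.51), Col2a1 (-1.47), Dnmt3b (-1.38), Hoxa9 (-1.37), Rdh10 (-1.31), Hoxd9 (-1.25), Hoxa10 (-1.2), Lifr (-1.17), Gata3 (-1.16), Tcf7l1 (-1.07) and Esrp1 (-0.98). The differences of Hand2, Maml2 and Atp6v0c-ps2 were called under every alternative run that tested them. No alternative altered how reads were split between Atp6v0c-ps2 and Atp6v0c at their shared locus, so the value of Atp6v0c-ps2 stays uncertain. The difference of Nppa was called under 6 of 17 alternatives, the fewest of the 36, with values from 1.58 to 3.41, and that of Zfp42 under 7 of 18, with values from 2.06 to 2.94. Those of Dnmt3b, Esrp1 and Lifr were called under 8 of 18, Gata3 and Spry4 under 9 of 18 and Hoxd9 under 9 of 17.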

How the results depend on the processing

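The RA response of GLP 3A cells was called for 9289 genes, and the count was 3570 when a 2-fold difference was also required. Leaving out 1 library at a time gave 7767 to 9364. With only the 4 GLP 3A libraries in the fit, 8512 genes were called. The difference between genotypes, 238 genes, was 149 with the 2-fold rule, 158 with a pseudocount of 0.1, 130 after quantile normalization and 153 with equal RPKM sums, and 11 to 1128 when 1 library was left out: 333 and 1128 without RA-treated GLP 3A replicates 1 and 2, 17 and 19 without the untreated GLP 3A replicates, 47 and 69 without the RA-treated and 12 and 11 without the untreated wild-type replicates. Under equal sums the split of these calls was 81 higher and 72 lower.

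With the replicate number as a block, 9601 genes were called for the GLP 3A response and 199 for the difference. Same-numbered libraries deviated together (correlations of 0.169 to 0.355), but the labels do not say that a number marks a shared culture.

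The medians of these lists changed sign under the settings given, except where a median is said to keep its sign, and the cause was not tested. Under equal sums they were 0.418 for RA receptors, 0.433 for LIF, 0.0721 for neuron, 0.302 for yolk sac and liver, 0.065 for G2 and M phase, 0.16 for FGF, 0.347 for Notch, 0.0889 for H3K9 methylation, 0.157 for DNA methylation and 0.348 for macrophage. With no filter they were -0.0217 for skeletal muscle, 0.029 for germ cell, 0.145 for Notch and 0.0879 for macrophage, and with the filter of 5 RPKM -2.08 for forebrain and 0.0501 for Notch. Quantile normalization gave -0.222 for definitive endoderm, 0.245 for ribosomal protein and -0.0361 for adipocyte. Without RA-treated GLP 3A replicate 1 yolk sac and liver had 1.78 and macrophage 0.709, and without untreated replicate 2 they had 1.54 and 0.0599. Without RA-treated replicate 2 the medians of these 2 lists kept their sign, at -1.5 and -1.04. Notch had 0.0425 without untreated replicate 1 and kept its sign without untreated replicate 2, at -0.299. Without the genes high in replicate 2, yolk sac and liver had 0.209. Among named genes, Ehmt1 (0.522), Ehmt2 (0.111), Hhex (0.023) and Mki67 (0.501) changed sign under equal sums.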

Other observations

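Zscan4 genes, which mark a rare state of mouse stem cells that resembles the early embryo, were below the filter and were not tested; they are named after their values were seen. Zscan4c was listed at 0 and 0.0329 RPKM in untreated and 2.54 and 0.33 RPKM in RA-treated GLP 3A cells, against 0.107 and 0.0774 RPKM in RA-treated wild type. Zscan4d was at 1.38 and 0.287 RPKM and Zscan4a at 1.17 and 0.531 RPKM in the treated GLP 3A libraries. In all 3 the treated replicate 1 library was the higher, and these levels rest on few reads.

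Of the macrophage and adipocyte lists only 2 members each passed the filter. Cd68, a lysosomal protein that other cells also use, fell from 27.7 and 24.5 to 16.7 and 12.6 RPKM, and Lyz2, lysozyme, at 1.66 and 4.62 untreated and 0.396 and 19.5 RPKM treated, was not called. Cebpa, a factor of fat, liver and myeloid cells, rose from 0.265 and 0.785 to 2.08 and 2.09 RPKM, and Lpl, lipoprotein lipase, was not called.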
